A study of Mus musculus with 5 samples.

Results

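The tumour suppressor p53, encoded in the mouse by Trp53, was examined together with 9 genes that it is known to activate directly: Mdm2, Mdm4, Plk2, Plk3, Ccng1, Sesn1, Phlda3, Zmat3 and Eda2r. The 10 genes were taken by symbol from the authors' normalized count table, which lists 27526 genes, and every symbol was found once. RNA sequencing had been carried out on mouse leukaemia cells carrying AML1-ETO9a, a truncated form of a fusion of human acute myeloid leukaemia, and selected for the stem cell receptor Kit. There were 3 libraries of cells labelled Plcg1 -/- by conditional deletion (deleted 2, 4 and 6, the numbers of the labels) and 2 labelled Plcg1 +/+ (wild-type 1 and 3), and the fusion and the Kit selection were common to both groups. Plcg1 encodes phospholipase C-γ1, which releases second messengers below growth factor receptors. The deleting Cre line, any agent given, the time after deletion, the age of the mice and whether each library came from its own mouse are not known from the sources used here, so p-values measure the spread between these libraries, which may be technical.

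p53 is a transcription factor that is held at a low level by the ubiquitin ligase Mdm2 and its relative Mdm4, and that is released from them after DNA damage, oncogene activity or ribosomal stress. It then raises transcription of genes that stop the cell cycle, repair DNA, adjust metabolism or start cell death, and also of Mdm2, which closes a negative feedback loop. Because p53 is controlled mainly as a protein, the level of its own transcript is a poor guide to its activity. In blood stem cells and in myeloid leukaemia the pathway is known as a brake on self-renewal.

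Sequences upstream of the genes were available for 9 of the 10, all but Zmat3, as RefSeq windows of 300 bases on GRCm38.p6, the build called mm10, from 250 bases before the start site to 50 bases after it. The p53 half-site consensus, a sequence of 10 bases that reads the same on both strands, was searched in the 11 windows of these 9 genes. It occurred in the windows of 4 genes, Ccng1, Mdm2, Trp53 and Sesn1, and in 8.36% of all 32851 windows. A p53 response element is a pair of such half-sites separated by up to 13 bases. The best pair in the Ccng1 window, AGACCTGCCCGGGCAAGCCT, had 1 mismatch and no spacer, and 1.09% of all windows held a pair with at most 1 mismatch. The best pair of Sesn1 had 2 mismatches, a match found in 10.1% of windows, and that of every other gene had 3 or more. The windows of 4 genes are shown, for the gene with the closest pair, for p53 itself and for Mdm2 and Plk2, both of them higher in each deleted library, with exact half-sites in capitals. Elements outside these windows were not searched, and a match is a match of letters only.
Ccng1, chr11:40755237-40755536, minus strand: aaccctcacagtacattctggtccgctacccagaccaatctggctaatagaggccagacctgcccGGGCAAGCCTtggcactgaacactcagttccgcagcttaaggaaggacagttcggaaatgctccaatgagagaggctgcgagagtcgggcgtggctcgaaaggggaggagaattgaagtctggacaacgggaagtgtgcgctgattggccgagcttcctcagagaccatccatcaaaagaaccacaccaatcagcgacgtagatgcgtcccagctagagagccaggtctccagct
Trp53, chr11:69580109-69580408, plus strand: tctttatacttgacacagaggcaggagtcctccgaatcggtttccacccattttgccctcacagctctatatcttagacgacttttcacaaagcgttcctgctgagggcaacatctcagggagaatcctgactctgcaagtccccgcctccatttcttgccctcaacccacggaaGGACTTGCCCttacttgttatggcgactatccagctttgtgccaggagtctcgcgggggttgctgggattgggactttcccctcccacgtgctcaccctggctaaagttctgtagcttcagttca
Mdm2, chr10:117710709-117711008, minus strand: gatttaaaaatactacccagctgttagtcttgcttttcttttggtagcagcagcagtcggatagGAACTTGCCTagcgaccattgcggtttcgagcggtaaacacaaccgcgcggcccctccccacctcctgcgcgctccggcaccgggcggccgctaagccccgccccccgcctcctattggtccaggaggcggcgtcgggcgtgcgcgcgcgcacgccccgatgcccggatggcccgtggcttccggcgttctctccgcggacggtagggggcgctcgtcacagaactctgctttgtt
Plk2, chr13:110394794-110395093, plus strand: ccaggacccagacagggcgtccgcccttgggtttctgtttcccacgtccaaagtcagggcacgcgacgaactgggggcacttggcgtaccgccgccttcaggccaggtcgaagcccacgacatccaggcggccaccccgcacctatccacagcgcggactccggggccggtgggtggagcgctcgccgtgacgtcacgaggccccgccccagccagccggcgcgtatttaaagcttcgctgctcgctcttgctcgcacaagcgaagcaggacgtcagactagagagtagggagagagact

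Libraries held 37306507 to 57133771 gene counts, and the 10 genes had 517 to 32620 counts in every library except for Eda2r, which had 6 to 88. Levels are given as CPM, the count scaled to a fixed library total, after edgeR's TMM normalization. Plcg1 was not lower under the deleted label (adjusted p = 0.543, edgeR), and since gene totals include exons outside the deleted part they do not check the deletion. Groups are therefore named by label throughout. Deleted 6 stood apart from the other libraries. Its 7 macrophage markers summed to 73781 CPM, against 8897 and 18541 CPM in deleted libraries 2 and 4 and 11270 and 10738 CPM in wild-type 1 and 3. Lyz2 made up most of that sum, at 68117 CPM in deleted 6, against 7215 and 15417 CPM in deleted libraries 2 and 4. All of the 7 but Cd14 were highest in deleted 6, and Cd14 had 128.7 CPM there and 131.5 CPM in deleted 4. Csf1r was close, at 727 CPM in deleted 6 and 673 CPM in deleted 4. Its 6 proliferation markers summed to 28.1 CPM, against 921 and 920.2 CPM in deleted libraries 2 and 4 and 1294 and 1359 CPM in wild-type 1 and 3. Kit, the receptor used for selection, had 672 and 304 CPM in deleted libraries 2 and 4 but 3.08 CPM in deleted 6, against 26.8 and 32.1 CPM in wild-type libraries. The 6 neutrophil and promyelocyte markers summed to 17.0 CPM in deleted 6, against 8542 and 7024 CPM in deleted 2 and 4 and 12166 and 13684 CPM in wild-type. Among them, Mpo was not lower in deleted 2 and 4 as the sum was, at 5068 and 3798 CPM, against 2706 and 3972 CPM in wild-type. No marker of the macrophage, neutrophil, mast cell and proliferation lists was at 0 in any library. In deleted 2 and 4 the 6 mast cell markers summed to 9906 and 4459 CPM, against 19.0 and 29.3 CPM in wild-type. The part of these differences in cell content in the results below was not tested, and in bulk RNA fewer cells of a type cannot be told apart from less RNA per cell. Each of the 10 genes is given with and without deleted 6.

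A group of 5 targets lay higher in every library labelled deleted. Mdm2, Plk2, Plk3, Phlda3 and Eda2r were above both wild-type libraries in each deleted library, which makes 5 of 10 genes, against 22.4% of the 16120 genes tested. Trp53 was the 1 gene of 10 below both wild-type libraries in each deleted library, against 23.7% of all genes. Ccng1, Mdm4, Sesn1 and Zmat3 overlapped between the groups. Across all 5 libraries edgeR's quasi-likelihood test with Benjamini-Hochberg adjustment called none of the 10 genes, and 0% of all genes. At an unadjusted p under 0.05, 4 of the 10 were higher and 0 lower, against 9.44% and 5.42% of all genes. Eda2r, with few counts in wild-type, passed the filter on low counts through its values in the deleted libraries. It therefore adds nothing to the count of 5 or the count of 4. Mdm2, Plk2, Plk3 and Phlda3 remain of the 5, and Mdm2, Plk2 and Plk3 of the 4. Without deleted 6, edgeR called 3 of the 10 higher, Mdm2, Plk2 and Plk3, against 7.89% of 15787 genes, and 0 lower, against 5.07%. DESeq2 on all 5 libraries called Mdm2, Plk2 and Eda2r higher and none of the 10 lower, against 5.75% and 3.05% of all genes. Weighting libraries by quality in limma-voom gave calls for these 3 and Plk3, against 7.63% higher and 5.87% lower among all genes. The Eda2r call likewise adds nothing to the count in DESeq2 or in limma-voom. Without a filter on low counts edgeR called Plk2 alone, against 0.539% higher and 0.38% lower. The median log2 fold change of the 10 genes, deleted minus wild-type, was 0.65 across all libraries and 0.42 without deleted 6, against 0.010 and -0.0053 for all genes tested. These medians include Eda2r. With Eda2r left out, the middle value is that of Plk3, 0.63, across all libraries and that of Zmat3, 0.15, without deleted 6.

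**Figure D1:**
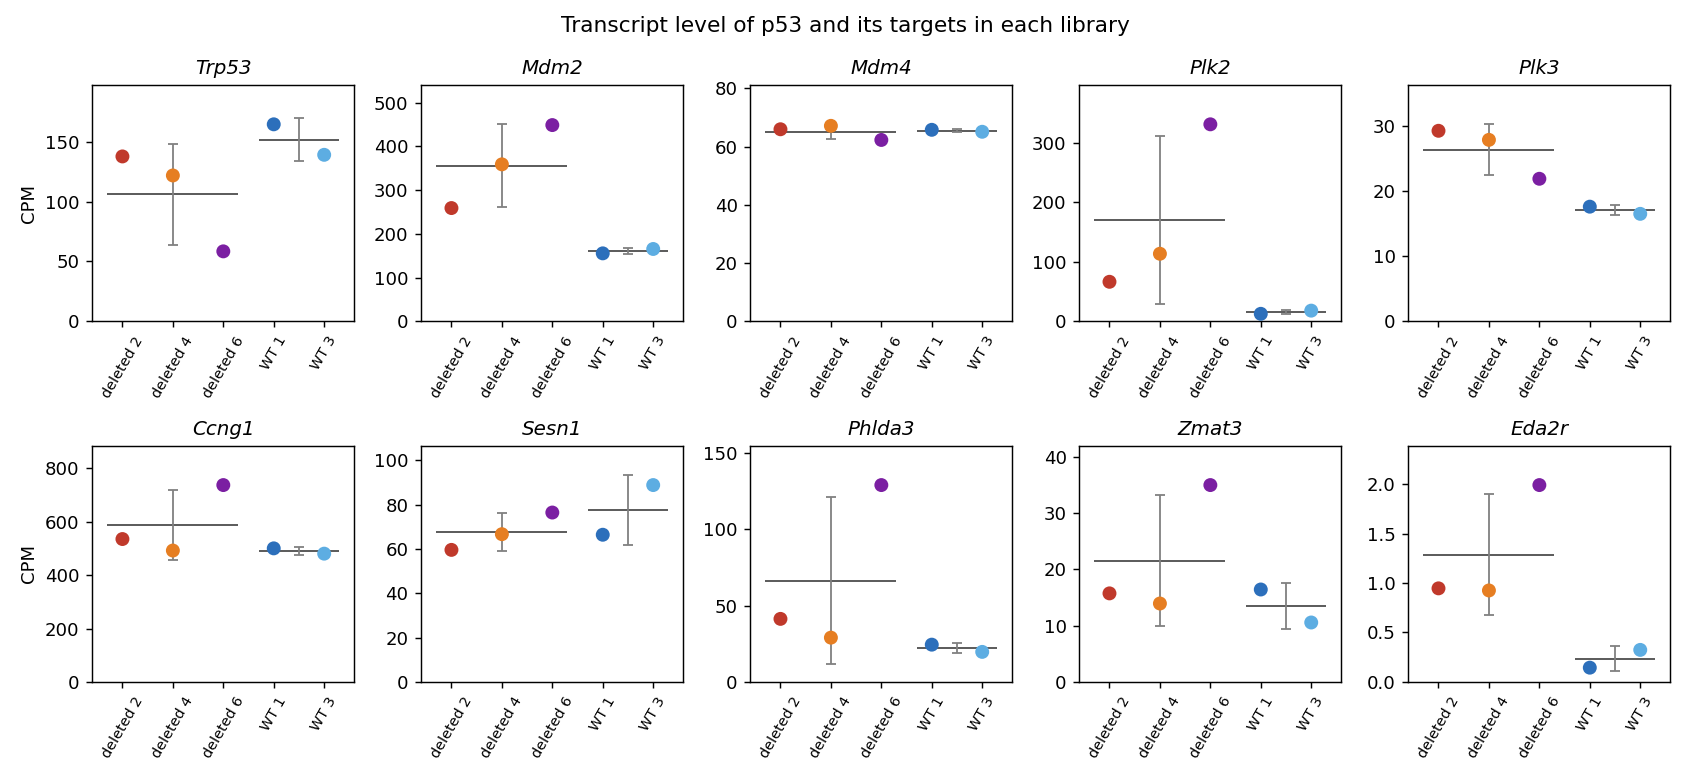
Level in CPM (vertical axes, from 0) of p53 and 9 of its targets in each of the 3 deleted and 2 wild-type libraries; horizontal lines are group means and bars their SD (n = 3 and 2). Mdm2, Plk2, Plk3, Phlda3 and Eda2r are above both wild-type libraries in every deleted library, and Mdm2, Plk2, Ccng1, Phlda3, Zmat3 and Eda2r are highest in deleted 6.

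Trp53 (ENSMUSG00000059552.12, chr11:69580359-69591873, plus strand) had a lower mean under the deleted label, mostly through 1 library. It stood at 138, 122 and 58.4 CPM in deleted libraries 2, 4 and 6, against 165 and 139 CPM in wild-type 1 and 3. All 3 deleted libraries were below wild-type, but deleted 2 and wild-type 3 differed by little. In edgeR the log2 fold change came to -0.52 ± 0.39 (SE; adjusted p = 0.534) over all libraries and to -0.21 ± 0.15 (adjusted p = 0.407) once deleted 6 was left out. The transcript thus passed the test in neither fit. Across the 5 libraries the 3 genes with the pattern nearest to that of Trp53, by the root mean square difference of centred log2 CPM among 9073 genes, were Exosc2, Snrpa and Wdr43, at 0.0473, 0.0481 and 0.0508 on the log2 scale. Being chosen for their likeness to Trp53, they were also lowest in deleted 6, which is no separate result. Exosc2 stood at 21.5 CPM there, against 51.2 and 42.6 CPM in the other deleted libraries and 58.1 and 53.01 CPM in the wild-type ones.

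The inhibitors of p53 differed from each other, with Mdm2 high in each deleted library and Mdm4 nearly level. Mdm2 (ENSMUSG00000020184.13, chr10:117688875-117710758, minus strand), the ubiquitin ligase that marks p53 for destruction, stood at 259, 359 and 449 CPM in deleted libraries 2, 4 and 6, against 155 and 165 CPM in wild-type 1 and 3. The wild-type libraries lay close together, and the lowest deleted library was well above both. Means were 355 ± 94.9 CPM (SD, n = 3) in deleted and 160.2 ± 7.07 CPM (SD, n = 2) in wild-type libraries, a 2.22-fold ratio. In edgeR the log2 fold change came to 1.15 ± 0.29 (SE; adjusted p = 0.228) over all libraries and to 0.96 ± 0.18 (adjusted p = 0.0211) once deleted 6 was left out. Mdm2 therefore rose in the comparison of 2 deleted with 2 wild-type libraries, where its mean was 1.93-fold that of wild-type. Mdm4 (ENSMUSG00000054387.12, chr1:132959484-133030561, minus strand), which binds and masks the activating region of p53, stood at 65.9, 67.1 and 62.3 CPM in deleted libraries 2, 4 and 6, against 65.7 and 65.1 CPM in wild-type 1 and 3. Its log2 fold change was -0.0067 ± 0.15 (SE; adjusted p = 0.984), the one nearest to 0 among the 10 genes, and 0.037 ± 0.13 without deleted 6 (adjusted p = 0.891).

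The level of Mdm2 was also set against that of Trp53 within each library. Per kilobase of exon, the ratio of Mdm2 to Trp53 was 1.50, 2.34 and 6.12 in deleted 2, 4 and 6, against 0.751 and 0.946 in wild-type 1 and 3. The ratio was above that of both wild-type libraries in each deleted library. It had to be, since Mdm2 was above and Trp53 below both wild-type libraries in each of them. The ratio therefore gives the size of the difference and is no separate result. Whether it lies above or below 1 depends on the exon lengths used (5083 bases for Mdm2 and 4045 for Trp53): in wild-type 3, Mdm2 had 165 CPM and Trp53 139 CPM before division by length. A ratio within a library does not depend on the scaling between libraries.

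The Polo-like kinases of the set were both higher in every deleted library, Plk2 by far the more. Plk2 (ENSMUSG00000021701.7, chr13:110395046-110400844, plus strand), a stress-induced kinase that acts at the centrosome and in G1, stood at 66.3, 114 and 331 CPM in deleted libraries 2, 4 and 6, against 12.5 and 17.8 CPM in wild-type 1 and 3. Every deleted library was several times above wild-type, and deleted 6 was the highest. Means were 170.4 ± 141 CPM (SD, n = 3) in deleted and 15.1 ± 3.78 CPM (SD, n = 2) in wild-type libraries. Their ratio was 11.3 with all deleted libraries and 5.94 with deleted 2 and 4 alone. In edgeR the log2 fold change came to 3.49 ± 0.83 (SE; adjusted p = 0.209) over all libraries and to 2.58 ± 0.30 (adjusted p = 0.00400) once deleted 6 was left out, where Plk2 had the largest change of the 10 genes and rose. Plk3 (ENSMUSG00000028680.13, chr4:117128655-117133963, minus strand), a kinase of the DNA damage response, stood at 29.3, 27.9 and 21.9 CPM in deleted libraries 2, 4 and 6, against 17.6 and 16.5 CPM in wild-type 1 and 3. In contrast to Plk2 it was lowest, among deleted libraries, in deleted 6. Its log2 fold change was 0.63 ± 0.22 (SE; adjusted p = 0.309), and it rose by 0.76 ± 0.16 without deleted 6 (adjusted p = 0.0279). Exons of Plk3 overlap those of Tctex1d4 on the opposite strand, which had 18 to 51 counts in a library, and the kit did not mark strand.

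**Figure D2:**
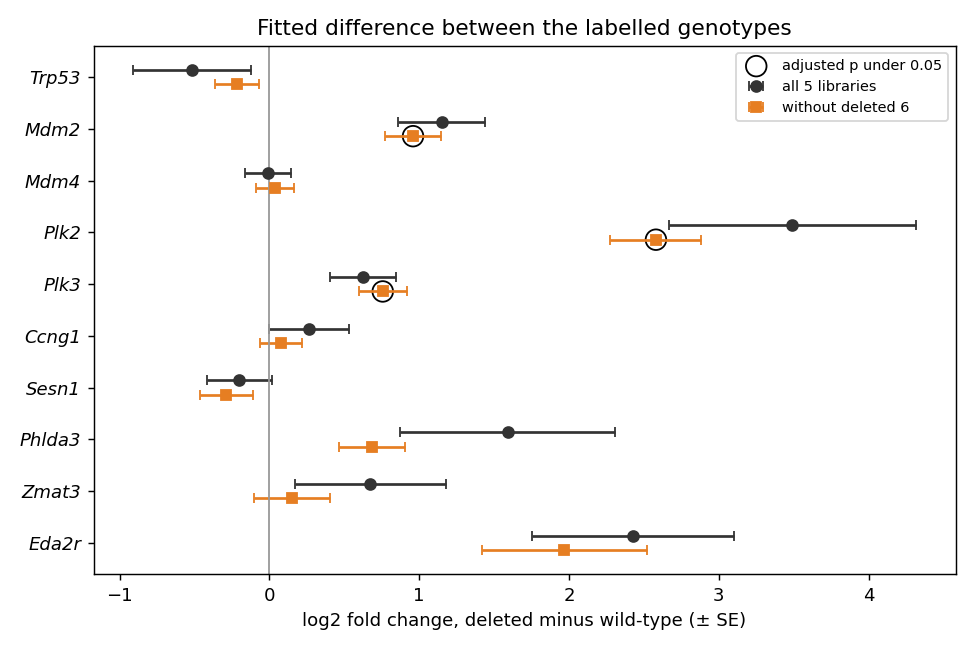
Log2 fold change, deleted minus wild-type, with its SE (horizontal axis) for p53 and 9 targets, fitted by edgeR with all 5 libraries (circles) and without deleted 6 (squares); open rings mark an adjusted p under 0.05. Rings fall on Mdm2, Plk2 and Plk3 without deleted 6, while with all 5 libraries Plk2 has the largest estimate, 3.49, and also the widest SE, 0.83.

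The classic target Ccng1 and the sestrin Sesn1 did not separate the groups. Ccng1 (ENSMUSG00000020326.7, chr11:40748552-40755311, minus strand), which encodes cyclin G1, a partner of protein phosphatase 2A that acts on Mdm2, carried the closest pair of half-sites in the windows searched. It stood at 535 and 492 CPM in deleted libraries 2 and 4 and 738 CPM in deleted 6, against 501 and 481 CPM in wild-type 1 and 3. Only deleted 6 was clearly above the rest. The log2 fold change was 0.26 ± 0.27 (SE; adjusted p = 0.627, edgeR), and 0.079 ± 0.14 without deleted 6 (adjusted p = 0.774). Sesn1 (ENSMUSG00000038332.11, chr10:41809935-41908424, plus strand), a stress protein that restrains the growth kinase mTORC1, stood at 59.6, 66.7 and 76.4 CPM in deleted libraries 2, 4 and 6, against 66.4 and 88.8 CPM in wild-type 1 and 3. Its values interleaved, and the log2 fold change was -0.20 ± 0.22 (SE; adjusted p = 0.646), and -0.29 ± 0.18 without deleted 6 (adjusted p = 0.348).

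Phlda3, Zmat3 and Eda2r had their highest values in deleted 6, as had Mdm2, Plk2 and Ccng1. Phlda3 (ENSMUSG00000041801.5, chr1:135766119-135769136, plus strand), a small protein that competes with AKT for membrane lipids, stood at 41.4, 29.1 and 129 CPM in deleted libraries 2, 4 and 6, against 24.5 and 19.7 CPM in wild-type 1 and 3. All deleted libraries were above wild-type, and the gap between deleted 4 and wild-type 1 was small. In edgeR the log2 fold change came to 1.59 ± 0.72 (SE; adjusted p = 0.369) over all libraries and to 0.69 ± 0.22 (adjusted p = 0.0956) once deleted 6 was left out, so the estimate was lower and more precise without that library and did not pass. Zmat3 (ENSMUSG00000027663.11, chr3:32334792-32366014, minus strand), an RNA-binding zinc finger protein, stood at 15.8, 13.9 and 35.0 CPM in deleted libraries 2, 4 and 6, against 16.4 and 10.6 CPM in wild-type 1 and 3. Deleted 2 and 4 lay between the wild-type libraries, and the log2 fold change was 0.68 ± 0.50 (SE; adjusted p = 0.529), and 0.15 ± 0.25 without deleted 6 (adjusted p = 0.763).

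Eda2r (ENSMUSG00000034457.9, chrX:97333840-97377216, minus strand), a receptor of the tumour necrosis factor receptor family for ectodysplasin A2, was the least abundant of the 10. It had 54, 49 and 88 counts in deleted 2, 4 and 6 (0.946, 0.925 and 1.99 CPM), against 6 and 18 counts in wild-type 1 and 3 (0.145 and 0.324 CPM). Each deleted library exceeded both wild-type libraries. Its log2 fold change of 2.43 ± 0.67 (SE) had an adjusted p of 0.251 in edgeR and of 0.0134 in DESeq2, and edgeR gave 1.97 ± 0.55 without deleted 6 (adjusted p = 0.0657). With 6 counts in wild-type 1, the gene failed a filter of at least 10 counts in every library, and it is tested here through its values in the deleted libraries. Its ligand gene Eda had 0 counts in every library.

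Deleted 6 and its markers moved with part of the set and not with the rest. Mdm2, Plk2, Ccng1, Phlda3, Zmat3 and Eda2r were highest in deleted 6, and Trp53 and Mdm4 were lowest there. The share of all tested genes that were highest or lowest in deleted 6 was not counted. The pattern is therefore not shown to be particular to the 10 genes. With deleted 6 alone set against the wild-type mean, the ratio was 21.9 for Plk2, 5.84 for Phlda3, 2.80 for Mdm2, 2.59 for Zmat3 and 1.50 for Ccng1. With deleted 2 and 4 it was 5.94 for Plk2, 1.59 for Phlda3, 1.93 for Mdm2, 1.10 for Zmat3 and 1.05 for Ccng1. For Plk3 the order was the other way, with 1.28 in deleted 6 and 1.68 in deleted 2 and 4. Differences between deleted 6 and the other deleted libraries rest on a single library and have no test.

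Sequencing lane, as the file names give it, was 4 for deleted 2, deleted 4 and wild-type 3, 5 for deleted 6 and 3 for wild-type 1. Within lane 4 the log2 fold change was 2.35 ± 0.40 for Plk2, 0.91 ± 0.26 for Mdm2 and 0.80 ± 0.20 for Plk3 (SE; edgeR adjusted p = 0.0760, 0.171 and 0.134), with the lone wild-type library assumed to vary like the deleted ones. None of the 10 genes was called there, where 1.26% of genes were called higher and 0.779% lower. Mdm2, Plk2, Plk3, Phlda3 and Eda2r kept their directions in lane 4. That follows from each deleted library being above both wild-type libraries for these genes, so it is no check on lane. Trp53, Ccng1, Sesn1 and Zmat3 kept theirs as well, and Mdm4 did not. Sesn1, at -0.48 ± 0.16, had its largest negative estimate there.

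Levels per kilobase of annotated exon allow the genes to be set in order. In wild-type libraries Ccng1 was first at a mean of 139.7 CPM per kilobase, followed by Trp53 at 37.5, Mdm2 at 31.5, Sesn1 at 19.5, Phlda3 at 14.2, Plk3 at 6.74, Mdm4 at 4.42, Plk2 at 3.37, Zmat3 at 1.18 and Eda2r at 0.0398. With 2 libraries, no neighbours in this order overlapped. In deleted libraries the order was Ccng1 at a mean of 168 CPM per kilobase, Mdm2 at 69.9, Phlda3 at 42.7, Plk2 at 37.9, Trp53 at 26.2, Sesn1 at 17.0, Plk3 at 10.4, Mdm4 at 4.40, Zmat3 at 1.89 and Eda2r at 0.218. There, the neighbours from Mdm2 down to Sesn1 overlapped over the 3 libraries, and the others did not. With deleted 2 and 4 alone, Trp53 at a mean of 32.1 CPM per kilobase lay above Phlda3 at 22.6 and Plk2 at 20.02, and the order was otherwise the same. Plk2 was above Plk3 and Mdm4 in each deleted library, and below both in each wild-type library. The long exon union of Mdm4 (14798 bases) and Zmat3 (11435 bases) lowers their values on this scale if shorter transcripts are the ones present.

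**Figure D3:**
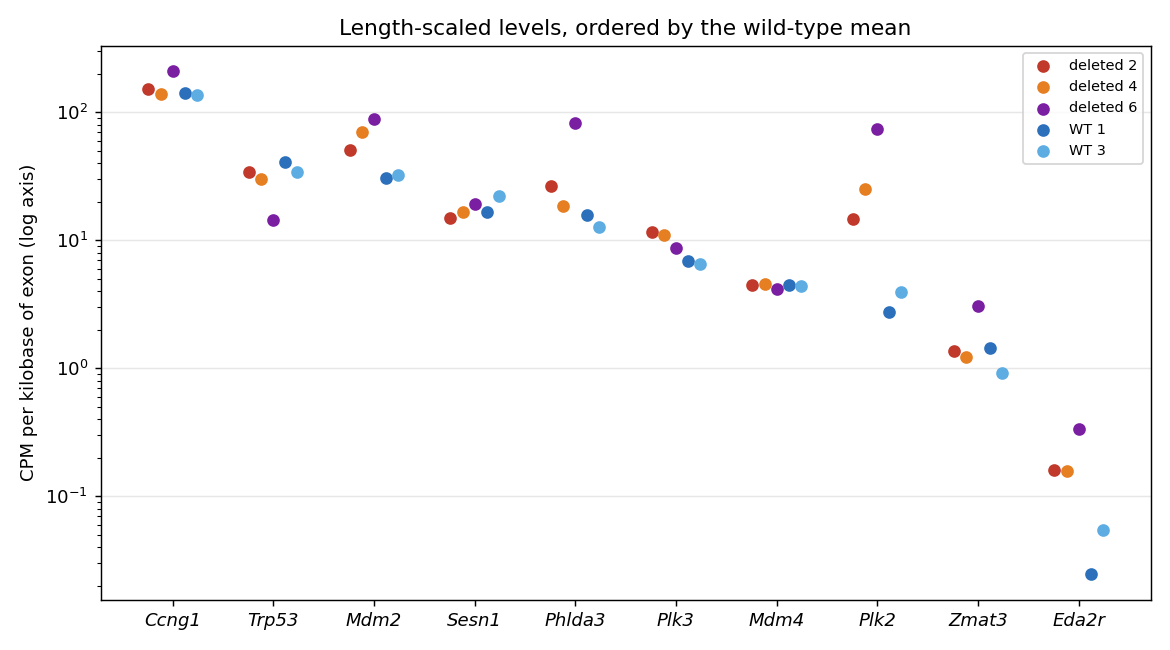
Level in CPM per kilobase of annotated exon (vertical log axis) of each gene in the 3 deleted and 2 wild-type libraries, with genes ordered by their wild-type mean. Plk2 has the widest spread on this axis, from 2.78 to 73.8 CPM per kilobase, while Mdm4 stays between 4.21 and 4.53.

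The medians of the wider pathway lay on both sides of 0, depending on the list. In all 4 lists of further p53 pathway genes edgeR called none across all 5 libraries, so the 4 genes of each list with the smallest unadjusted p, and 3 genes chosen by name, are described. Among 19 tested genes that activate p53 or control its turnover, the median log2 fold change was -0.30 across all libraries and -0.13 without deleted 6. At an unadjusted p under 0.05, 1 was higher and 2 were lower, against 9.44% and 5.42% of all genes. Every deleted library was above both wild-type libraries in 2 of the 19 and below both in 9, against 22.4% and 23.7% of all genes. Hipk2, a kinase that phosphorylates p53, stood at 142, 132 and 229 CPM in deleted libraries 2, 4 and 6, against 73.4 and 77.5 CPM in wild-type, and rose by 0.87 ± 0.13 without deleted 6 (SE; edgeR adjusted p = 0.00837). Pml, the scaffold of nuclear bodies at which p53 is modified, stood at 47.6, 41.8 and 36.9 CPM in deleted libraries 2, 4 and 6, against 81.0 and 120.4 CPM in wild-type, and fell by 1.16 on the log2 scale without deleted 6 (adjusted p = 0.0170). These were the 2 calls of that list in that fit, in which 7.89% of all genes were called higher and 5.07% lower. Wrap53, the gene next to Trp53, had a log2 fold change of -0.66 ± 0.25 (adjusted p = 0.327), and the ubiquitin ligase gene Rchy1 had 0.49 ± 0.24 (adjusted p = 0.388). Cdkn2a, whose Arf product inhibits Mdm2, stood at 1.61, 0.661 and 3.69 CPM in deleted libraries 2, 4 and 6, against 0.699 and 1.33 CPM in wild-type. Rpl5 and Rpl11, ribosomal proteins that bind Mdm2, have many near-identical copies, and their values are uncertain.

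Among 20 tested targets of arrest, repair and metabolism, the median log2 fold change was 0.30, and 0.15 without deleted 6. At an unadjusted p under 0.05, 4 were higher and 1 was lower across all libraries, against 9.44% and 5.42% of all genes. Every deleted library was above both wild-type libraries in 9 of the 20 and below both in 3, against 22.4% and 23.7% of all genes. Cdkn1a, which encodes the cell cycle inhibitor p21 and is the best known target, stood at 354, 331 and 673 CPM in deleted libraries 2, 4 and 6, against 312 and 256 CPM in wild-type. The groups did not overlap, but the log2 fold change of 0.67 ± 0.39 (SE; edgeR adjusted p = 0.454) did not pass, nor did 0.28 ± 0.15 without deleted 6 (adjusted p = 0.294). Without deleted 6 edgeR called 3 genes of this list higher and 1 lower, against 7.89% and 5.07% of all genes. Gdf15, a stress-induced cytokine, had 9.06, 37.4 and 26.8 CPM in deleted libraries 2, 4 and 6, against 3.45 and 3.62 CPM in wild-type, and rose by 2.73 ± 0.62 in that fit (SE; adjusted p = 0.0351). Gadd45a, a growth arrest gene, had 23.2, 32.5 and 22.6 CPM in the deleted libraries, against 14.6 and 13.9 CPM in wild-type, and rose by 0.98 ± 0.21 (adjusted p = 0.0306). Rprm, which encodes the arrest protein Reprimo, had 1006 and 329 counts in deleted 2 and 4, 1 count in deleted 6 and 0 in both wild-type libraries; against a floor of 3 counts over the wild-type group, its mean in deleted 2 and 4 was at least 353.5-fold higher. Rprm passed the filter on low counts only through deleted 2 and 4, so its call adds nothing to the count, and 2 of the 3 genes called higher remain without it. Rprm was also 1 of the 4 genes higher at an unadjusted p under 0.05, and 1 of the 9 above wild-type. It adds nothing to those counts either, and in deleted 6 it rests on 1 count against 0. The mast cell markers were likewise high in deleted 2 and 4 alone, and their part in this result was not tested. Dcxr, a carbonyl reductase, fell by 1.00 on the log2 scale in that fit, but had its highest value, 38.7 CPM, in deleted 6, and edgeR gave -0.27 over all libraries (adjusted p = 0.815); Rprm and Dcxr were named after their values were seen. Sfn, an arrest gene of the 14-3-3 family, and Xpc, a nucleotide excision repair gene, had log2 fold changes of 1.60 ± 0.52 and -0.92 ± 0.32 across all libraries (adjusted p = 0.286 and 0.307).

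Among 15 tested cell death targets, the median log2 fold change was 0.18, and 0.038 without deleted 6. At an unadjusted p under 0.05, 2 were higher and 0 lower, against 9.44% and 5.42% of all genes. Every deleted library was above both wild-type libraries in 4 of the 15 and below both in 3, against 22.4% and 23.7% of all genes. Bax, a pore-forming death protein, stood at 189, 180 and 243 CPM in deleted libraries 2, 4 and 6, against 227 and 211 CPM in wild-type, and its groups overlapped. Trp53inp1, a stress protein that promotes p53 activity and autophagy, stood at 83.0, 109 and 210.3 CPM in deleted libraries 2, 4 and 6, against 54.0 and 63.2 CPM in wild-type, and rose by 0.72 ± 0.18 without deleted 6 (SE; edgeR adjusted p = 0.0441). Perp, a membrane protein of cell junctions, stood at 93.6 and 39.96 CPM in deleted libraries 2 and 4 and 0.972 CPM in deleted 6, against 2.84 and 4.38 CPM in wild-type. It rose by 4.21 ± 0.46 without deleted 6 (adjusted p = 0.00303). The mast cell markers were high in deleted 2 and 4 too, and their part in this result was not tested. Trp53inp1 and Perp were the 2 calls of the list without deleted 6, a fit in which 7.89% of all genes were called higher and 5.07% lower. Bbc3, the death activator PUMA, and Pidd1, a death domain protein, had log2 fold changes of 0.66 ± 0.26 and -1.10 ± 0.51 across all libraries (adjusted p = 0.335 and 0.376).

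Most relatives of the 10 genes differed little between the groups or were hardly detected. Of 17 relatives, 9 passed the filter on low counts, and the p53 paralogues Trp63 and Trp73 did not, with at most 13 and 2 counts in a library. The median log2 fold change of the 9 was 0.16, and -0.011 without deleted 6. At an unadjusted p under 0.05 in edgeR, 1 was higher and 0 lower, against 9.44% and 5.42% of all genes. Every deleted library was above both wild-type libraries in 1 of the 9 and below both in 2, against 22.4% and 23.7% of all genes. Plk1 and Plk4, the Polo-like kinases of mitosis and centriole copying, were below wild-type in every deleted library and lowest in deleted 6. Plk1 stood at 2.35 CPM there, 131 and 120 CPM in deleted libraries 2 and 4, and 176 and 177 CPM in wild-type. Plk1 was not among the 4 relatives with the smallest p (unadjusted p = 0.466, edgeR) and was added beside Plk4. Plk4 stood at 10.7 CPM in deleted 6, 81.5 and 83.7 CPM in deleted libraries 2 and 4, and 97.3 and 114 CPM in wild-type. Phlda1, a relative of Phlda3, stood at 1.26, 2.47 and 2.76 CPM in deleted libraries 2, 4 and 6, against 0.41 and 0.468 CPM in wild-type, and rose by 2.09 ± 0.49 without deleted 6 (SE; edgeR adjusted p = 0.0396). It was the 1 call among the relatives in that fit, in which 7.89% of all genes were called higher and 5.07% lower. Sesn2 and Zmat2 had log2 fold changes of 0.22 ± 0.23 and -0.20 ± 0.19 (adjusted p = 0.637 and 0.602), with overlapping groups.

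**Figure D4:**
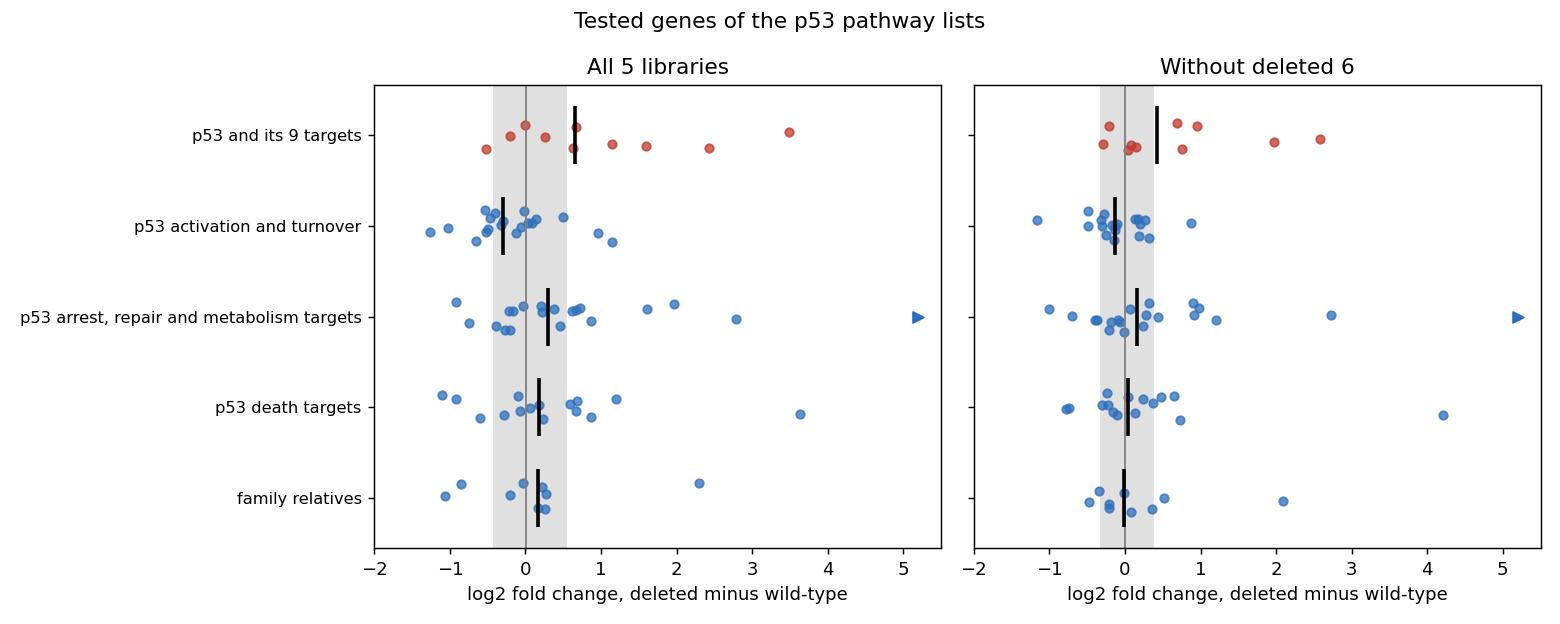
Log2 fold change, deleted minus wild-type, of each tested gene (points) of the set of 10 and of 4 further lists, with all 5 libraries (left) and without deleted 6 (right); black bars are list medians, the grey band is the interquartile range of all tested genes with its median as a line, and an arrow stands for Rprm, which lies off the axis. The median of the 10 genes, 0.65 and 0.42, lies above those of the other lists, which run from -0.30 to 0.30 and from -0.13 to 0.15. The set includes Eda2r, which passed the filter on low counts through the deleted libraries. With Eda2r left out, its middle value is 0.63 (Plk3) and 0.15 (Zmat3). The latter is not above the other lists, of which the arrest list keeps Rprm.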

How the data were processed

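Per the labels' protocols, cDNA was made with SMART-Seq v4 and libraries with Nextera XT, and per the series' design text reads were single-end of 50 bases. STAR, DESeq2 1.12.4, bcl2fastq 1.8.4 and mm10 are named per the submitters' processing notes; the annotation and the settings for counting were not given in the sources used. The authors deposited read counts for 46603 genes per library, a table of normalized signal (these counts divided by 1 size factor per library) and a table on a log2 scale, which was not used. Rows that name no gene, mostly reads aligned to several places (13.0% to 15.1% of reads), stayed out of the tests.

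Counts were filtered with filterByExpr (16120 genes), scaled by TMM and compared by genotype in edgeR's quasi-likelihood test (edgeR 4.0.16, limma 3.58.1, DESeq2 1.42.0, R 4.3.3), with Benjamini-Hochberg adjustment over all genes and a threshold of 0.05. The SE is the size of the log2 fold change over the square root of F. The scripts were tested on simulated data. An exact two-sided permutation test of 3 against 2 libraries cannot go below p = 0.1, so none was used. Limits from 3 counts cover counting error only. Alternatives were other normalization, tests and filters, each library left out, and lane 4 alone. Exon lengths and loci are from GENCODE M21 on GRCm38, and promoters from RefSeq. Named were all 10 genes, Plcg1, the 3 genes nearest Trp53 of mean log2 CPM 3 or more, Cdkn1a, Bax, Cdkn2a, and per list the called genes or, with none, the 4 with the smallest p. Further genes, among them Plk1, Rprm and Dcxr, were named outside this rule. The genes and lists were chosen with earlier results of these data known. One gene of the lists, Trp53rk, was not found by symbol.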

Additional observations from a re-analysis of the deposited data

How the results depend on the processing

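No paired analysis was possible because the 2 groups share no replicate number. Across all 5 libraries edgeR called 0 genes higher and 0 lower, also with median-of-ratios size factors and with at least 10 counts in every library. DESeq2 called 927 higher and 492 lower, limma-voom 1230 and 947, edgeR without a filter on low counts 163 and 115, and edgeR in lane 4 alone 211 and 131. With 1 library left out the counts ran from 0 to 1245 higher and from 0 to 800 lower, and only the fit without deleted 6 gave calls. Of the 10 genes, DESeq2 called 3 higher, limma-voom 4, the fit without a filter 1 (Plk2, adjusted p = 0.0495) and the fits with 1 library left out 0 to 3. None was called lower in any of these fits. Among genes that activate p53 or control its turnover, DESeq2 called 1 higher and 1 lower, limma-voom 1 and 2, lane 4 gave 1 lower, and fits with 1 library left out gave 0 to 1 each way. Among arrest, repair and metabolism targets, DESeq2 called 4 higher, limma-voom 2 higher and 2 lower, and fits with 1 library left out 0 to 3 higher and 0 to 1 lower. Among death targets, limma-voom called 1 higher and 1 lower, and fits with 1 library left out 0 to 2 higher. Among relatives, there was 1 higher in DESeq2 and 1 in limma-voom, and fits with 1 library left out 0 to 1. The cause of these differences between tests was not tested. Eda2r and Rprm passed the filter on low counts through deleted libraries in which they were high. Eda2r is among the calls of DESeq2 and limma-voom for the 10 genes. Rprm is among the calls of DESeq2, and of edgeR without deleted 6, for the arrest, repair and metabolism targets. These calls add nothing to those counts. With wild-type 1 or wild-type 3 left out, the adjusted p of each of the 10 genes was at least 0.831, and the lone wild-type library was assumed to vary like the others.

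Signs changed for Mdm4, Sesn1, Cdkn2a, Rpl11 and Dcxr among the named genes, of which Dcxr was the one called in any fit. Mdm4, at -0.0067, was at 0.0296 with limma-voom and 0.0423 in lane 4, and ran from -0.0234 to 0.0367, the value without deleted 6, over fits with 1 library left out. Sesn1, at -0.20, ran from -0.40 to 0.0277, the value without wild-type 3. Cdkn2a, at 0.96, was at -0.27 with limma-voom and -0.22 in lane 4. Rpl11, at -0.40, was at 0.040 in lane 4. Dcxr, at -0.27, ran from -1.003, the value without deleted 6 (adjusted p = 0.0137), to 0.0015 over fits with 1 library left out, and limma-voom gave -0.97 (adjusted p = 0.0286). The median of the death targets was -0.076 in lane 4, and that of the relatives was below 0 in 4 settings, at -0.10 with limma-voom, -0.011 without deleted 6, -0.0011 without wild-type 1 and -0.0031 in lane 4. With wild-type 3 left out the log2 fold change of Eda2r was 3.13, and over fits with 1 library left out those of Plk2 ran from 2.58 to 3.88, of Mdm2 from 0.96 to 1.34 and of Phlda3 from 0.69 to 1.95. Depth limits Eda2r, with 6 counts in 1 library.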
